A study of Mus musculus with 4 samples.

Results

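The regulators of G protein signalling (RGS proteins) described here are 10 genes, Rgs1, Rgs2, Rgs3, Rgs4, Rgs5, Rgs10, Rgs12, Rgs14, Rgs16 and Rgs19, taken by gene symbol from a table of 32647 symbols measured in recruited renin cells. All 10 symbols were found in the table, and 9 were above 0 in at least 1 library. Rgs5, known as a marker of mural cells and of renin cells, was the most abundant in each library at 179.6 ± 34.7 TPM (SD, n = 2 biological samples), and Rgs2 followed at 66.5 ± 5.05 TPM. TPM is a transcript abundance corrected for length and scaled to the same total in each library. The other 8 members were each under 1 TPM in at least 1 library.

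RGS proteins switch off signals from G protein coupled receptors. An activated receptor loads the G alpha subunit with GTP, and the RGS domain speeds the hydrolysis of that GTP, so that the subunit returns to its resting state. In smooth muscle and pericytes, Rgs2, Rgs4 and Rgs5 are known as brakes on signals from vasoconstrictor receptors such as the angiotensin II receptor. Renin cells, which arise from the same vascular lineage, release renin when cyclic AMP rises after Gs signals, while angiotensin II acting through Gq restrains them.

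The cells came from kidney cortices of adult Ren1c-YFP mice on the C57BL/6 background, whose renin-expressing cells are marked by a yellow fluorescent protein under the renin promoter, and were sorted by it. The mice had received a low salt diet for 1 week with 0.5 g/L captopril, which blocks angiotensin converting enzyme, in the drinking water. This treatment is known to recruit more cells of the kidney arterioles to make renin. There were 2 biological samples with 2 technical replicates each. Libraries 1A and 1B are technical replicates 1 and 2 of biological sample 1, and libraries 2A and 2B are those of biological sample 2. All libraries carry the same treatment and reporter, so there is no untreated group and no test between conditions. Each library was amplified from a small pool of cells, and the labels do not say whether a biological sample was 1 mouse. A level is the mean of the biological samples, each the mean of its technical replicates. Its SD over samples leaves out the spread between technical replicates, which is why the value in every library is given.

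The libraries held 19871382, 28774550, 40788108 and 47471036 estimated counts in 1A, 1B, 2A and 2B. Genes at 1 TPM or more numbered 8709, 7198, 7070 and 6405 in the same libraries. The sorted cells carried their defining transcript, with Ren1 between 15933 and 29637 TPM, and 7 of 11 mural markers reached 1 TPM in each library. Markers of other kidney cells were present too. The summed TPM of 7 proximal tubule markers ranged from 610 to 12506, that of 6 markers of the distal nephron from 71.1 to 1462 and that of 13 leukocyte markers from 0.655 to 38.1. Each of 14 genes known to be induced by tissue dissociation reached 1 TPM in all libraries. In pooled cells, fewer cells that express a gene and less RNA per cell cannot be told apart.

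The first coding bases of the members are shown because Rgs4, Rgs5 and Rgs16 are known substrates of the N-degron pathway, in which a cysteine exposed behind the starting methionine is oxidised and marks the protein for destruction. They come from GENCODE M21 transcripts on GRCm38, on the coding strand, and the capitals mark the second codon.
Rgs5: atgTGTaagggactggcagctctgccgcac
Rgs4: atgTGCaaaggacttgcaggtctgccggct
Rgs16: atgTGCcgcaccctagccaccttccccaac
Rgs2: atgCAAagtgccatgttcctggctgtccag
Rgs3: atgAACcgcttcaatgggctctgcaaagtg
Rgs1: atgAGAgcggcagccatctccatgccaagg
Rgs19: atgCCCaccccacatgaggctgagaaacag
Rgs10: atgTTCacccgcgccgtgagccgactgagc
Rgs12: atgTACagggctggggagccagggaaacgg
Rgs14: atgCCAgggaagcccaagcacttgggtgtc
The second codon of Rgs5, Rgs4 and Rgs16 is TGT or TGC, a cysteine codon. It was one in 3 of 10 members, against 180 of 21588 protein-coding genes with an ATG start (0.834%). The 3 were known substrates before the count was made, so nothing is read from it. These 3 genes differed widely in level: Rgs5 led the family, Rgs4 was concentrated in 1 biological sample and Rgs16 was listed at 0 in each library. The coding regions shown have 181 codons in Rgs5, 205 in Rgs4, 201 in Rgs16 and 211 in Rgs2, whereas that of Rgs3 has 966 codons in the transcript used.

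Rgs5, a small RGS protein of the R4 subfamily, lies on chromosome 1 of GRCm38 from 169655501 to 169695813 on the plus strand (ENSMUSG00000026678). It was at 248 TPM in library 1A, 161 TPM in 1B, 118 TPM in 2A and 192 TPM in 2B. Each library was above 100 TPM, and the libraries of the biological samples overlapped. A lower level was found for 97.2% of the 19229 genes above 0 in at least 1 library. The estimated counts behind it were 37238, 41721, 30022 and 66774 in the same libraries, so its detection did not rest on a few reads.

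Rgs2, known for its preference for Gq, lies on the same chromosome from 143999338 to 144004161 on the minus strand. Its level was 57.9 TPM in library 1A, 68.0 TPM in 1B, 76.7 TPM in 2A and 63.6 TPM in 2B, with 6070 to 15421 estimated counts. Sample 1 and sample 2 overlapped, and 94.2% of the 19229 genes above 0 in at least 1 library had a lower level. Every library of Rgs5 was above every library of Rgs2. The libraries fell in opposite orders for these genes, with Rgs5 highest in 1A and lowest in 2A and Rgs2 highest in 2A and lowest in 1A. The ratio of Rgs5 to Rgs2 TPM was 4.28 and 2.36 in sample 1, and 1.54 and 3.02 in sample 2.

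**Figure D1:**
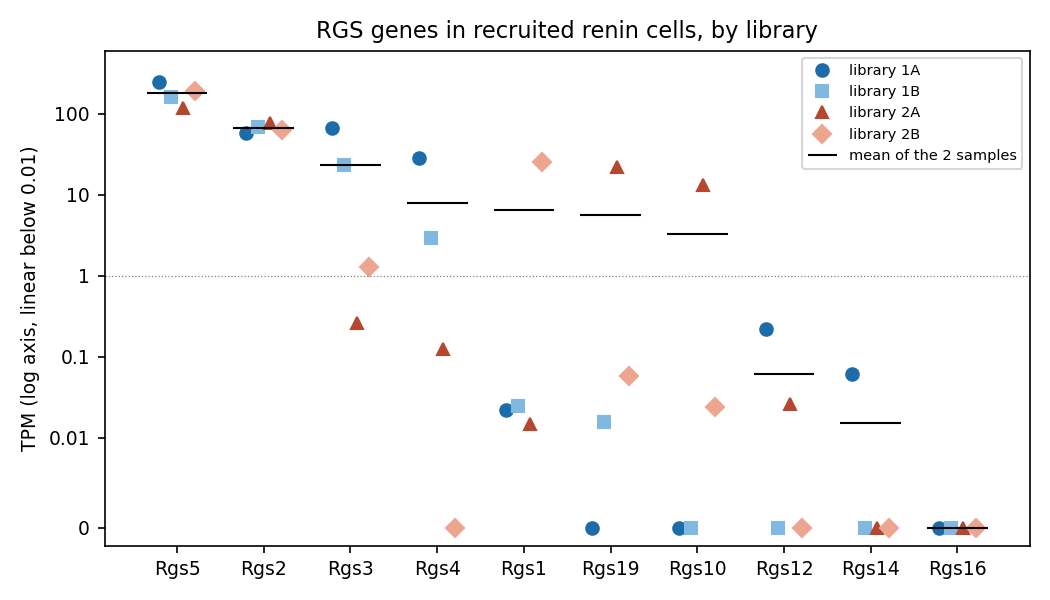
TPM of each of the 10 members (vertical axis, logarithmic above 0.01 and linear below) in libraries 1A, 1B, 2A and 2B, with a bar at the mean of the 2 biological samples and a dotted line at 1 TPM. Rgs5 and Rgs2 keep all 4 libraries close together, whereas Rgs3, Rgs4, Rgs1, Rgs19 and Rgs10 spread over several orders of magnitude.

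Rgs2 was among the evenest transcripts in these libraries. Its highest library was 1.32 times its lowest. Of 3179 genes that reached 1 TPM in all 4 libraries, 0.440% had a smaller ratio, and the median ratio was 6.16. Among the 1215 of these with a level of at least 50 TPM, 0.823% had a smaller ratio and the median was 4.34. The ratio of Rgs5 was 2.09, with 8.59% of the 3179 genes and 15.6% of the 1215 genes below it. The summed dissociation genes ranged more widely than either, at 3424 and 2939 TPM in libraries 1A and 1B and 1415 and 1158 TPM in 2A and 2B. This did not hold for each gene of that list. Hspa1b, between 45.8 and 62.2 TPM, ranged less widely than Rgs5.

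**Figure D2:**
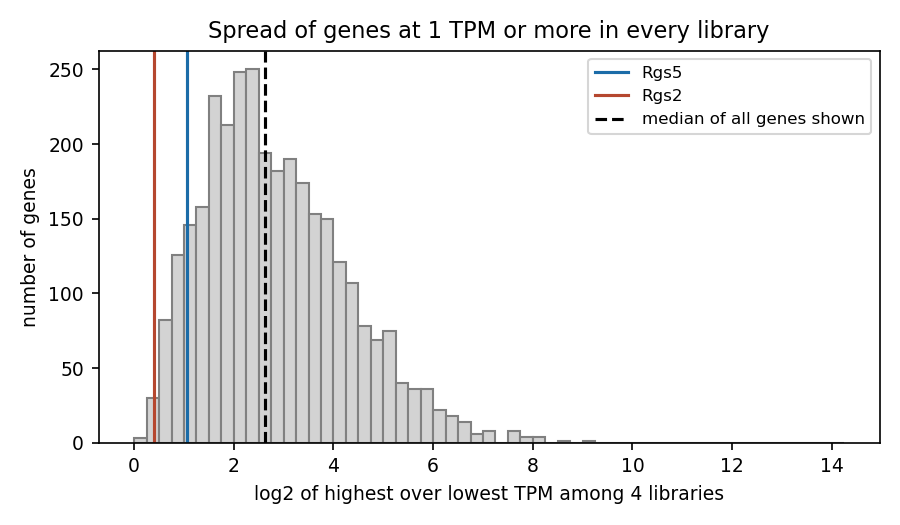
Number of genes (vertical axis) by the log2 ratio of the highest to the lowest TPM among the 4 libraries (horizontal axis), for the 3179 genes that reached 1 TPM in each of them. Rgs2, with a ratio of 1.32, stands near the left edge, Rgs5 is at 2.09 and the dashed median at 6.16.

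The promoters of both genes are shown, since these were the RGS transcripts found throughout. The sequences are from RefSeq on GRCm38.p6, from 250 bases before to 50 bases after the start site and in the direction of transcription. The table held promoters for 8 of the 10 members. Capitals mark a half-site of the cyclic AMP response element (CRE), TGACG on either strand, which reads CGTCA when it lies on the minus strand.
Rgs2 promoter, chr1:144004100-144004399, minus strand: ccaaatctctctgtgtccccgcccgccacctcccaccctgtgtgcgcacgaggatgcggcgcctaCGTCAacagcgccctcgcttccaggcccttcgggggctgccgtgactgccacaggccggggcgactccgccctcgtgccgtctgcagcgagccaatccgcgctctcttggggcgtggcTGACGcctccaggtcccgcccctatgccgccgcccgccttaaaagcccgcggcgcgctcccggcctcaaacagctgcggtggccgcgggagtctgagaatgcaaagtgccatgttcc
Rgs5 promoter, chr1:169655251-169655550, plus strand: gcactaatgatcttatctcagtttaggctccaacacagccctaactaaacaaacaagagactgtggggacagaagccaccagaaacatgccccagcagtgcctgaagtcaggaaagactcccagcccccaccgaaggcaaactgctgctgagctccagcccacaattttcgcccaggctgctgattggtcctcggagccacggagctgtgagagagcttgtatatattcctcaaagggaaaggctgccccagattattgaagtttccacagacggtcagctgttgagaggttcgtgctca
The Rgs2 promoter held a half-site on each strand, at positions -185 to -181 and -67 to -63 from the start site. The Rgs4 promoter, not printed here, also held one on each strand, at -236 to -232 and -141 to -137. Rgs4 was at 0.126 and 0 TPM in the libraries of sample 2. Of 32851 promoters of this length, 20.8% held at least 1 such half-site, so a match is common. The full CRE, TGACGTCA, was in 1.79% of promoters, the CArG box of serum response factor in 1.63% and TATAAA in 13.6%, each sought on both strands, and the half-site lies within the full CRE. None of these letters was found in the Rgs5 window, and the Rgs2 window held the half-site alone. The Rgs2 window had 70.0% G and C with 33 CpG, and that of Rgs5 had 52.3% with 6 CpG, against medians of 52.7% and 7 over all promoters.

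The genes whose pattern over the 4 libraries was most like that of Rgs5 were found among the other 3178 genes present in every library. Likeness was the root mean square difference of log2(TPM + 1) after each gene's mean had been subtracted. The closest 5 were Sgip1 at 0.07, Rpl9 at 0.07, Ap2s1 at 0.07, Olfr718-ps1 at 0.08 and Junb at 0.10. Sgip1 and Ap2s1 take part in clathrin-mediated endocytosis, Rpl9 is a ribosomal protein, Olfr718-ps1 is a pseudogene of an olfactory receptor and Junb is a transcription factor of the dissociation list. Rpl9 and Olfr718-ps1 have similar copies in the genome, so reads may have been divided among them. In all, 78 genes lay within 0.25, and over 4 libraries such closeness is a description only. Rgs2 lay at 0.53.

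**Figure D3:**
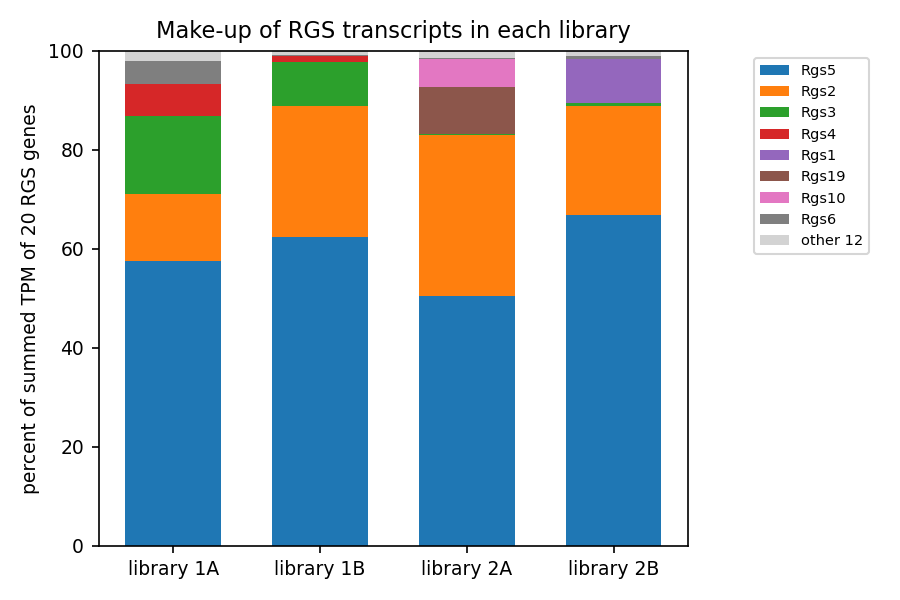
Percent of the summed TPM of 20 RGS genes (vertical axis) held by each gene in libraries 1A, 1B, 2A and 2B, stacked to 100. Rgs5 holds between 50.4% and 66.8%. Rgs2, stacked next to it in each library, holds the second largest share in each but 1A, where Rgs3 exceeds it.

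Rgs5 made up most of the RGS transcripts. As a percent of the summed TPM of the 20 canonical RGS genes, it held 57.6% in library 1A, 62.4% in 1B, 50.4% in 2A and 66.8% in 2B. When the TPM of technical replicates were summed first, the share was 59.4% in both biological samples, although the shares of their libraries differed. Rgs5 and Rgs2 together held 71.1% in library 1A, 88.8% in 1B, 83.1% in 2A and 88.9% in 2B. What filled the remainder changed from library to library. It was mainly Rgs3, Rgs4 and Rgs6 in 1A, Rgs3 in 1B, Rgs19 and Rgs10 in 2A, and Rgs1 in 2B.

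Of the 10 members, 2 (Rgs5 and Rgs2) reached 1 TPM in all libraries, which was so for 9.74% of all genes in the table. Over genes above 0 in at least 1 library, it was 2 of 9 members against 16.5% of 19229 genes. Both members with a level of at least 50 TPM met it, as did 87.3% of 1391 genes at that level, and nothing particular to the members is read from it. Each library held 4 members at 1 TPM or more, but only Rgs5 and Rgs2 were among the 4 in all of them.

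Rgs3, which acts on Gi and Gq subunits, was found mainly in sample 1. It was at 67.5 and 23.1 TPM in libraries 1A and 1B, against 0.263 and 1.27 TPM in 2A and 2B. The estimated counts were 1895 and 1122 in sample 1 and 12.5 and 82.8 in sample 2. Its samples did not overlap and differed by 4.71 on the log2 scale of TPM + 1. The mean over samples was 23.0 ± 31.5 TPM (SD, n = 2), so the spread between samples was as large as the level, and the authors' deposited mean of 3 libraries, without 1A, was 8.22 TPM. In library 1A it exceeded Rgs2, and its place below Rgs2 therefore does not hold in each library. Rgs3 lies on chromosome 4 from 62559847 to 62704001 on the plus strand and has 8 coding transcripts of 496 to 4698 bases. Its deposited effective lengths of 771 to 924 were nearer the short end of that range.

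Rgs4, a brake on Gi and Gq signals that neighbours Rgs5, showed the same direction. It was at 28.3 and 2.90 TPM in libraries 1A and 1B, against 0.126 and 0 TPM in 2A and 2B. Library 1A held 90.3% of its summed TPM. The samples did not overlap and differed by 3.97 on the log2 scale of TPM + 1, with a level of 7.83 ± 11.0 TPM (SD, n = 2) and an authors' deposited mean of 1.01 TPM. The genes Rgs5 and Rgs4 face each other on chromosome 1, with 45.7 kb between their ends, and Rgs4 runs from 169741477 to 169747642 on the minus strand. Rgs5 stayed above 100 TPM in the libraries in which Rgs4 was at or near 0.

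The marker lists of several cell types differed between the same samples. The summed TPM of 5 mesangial markers was 312 and 149 in libraries 1A and 1B, against 96.0 and 84.1 in 2A and 2B. Among them, the integrin Itga8 was at 31.4 and 6.23 TPM in sample 1 and 1.05 and 0.0181 TPM in sample 2. The 11 mural markers summed to 2008 and 1282 TPM in sample 1 and 1189 and 936 TPM in sample 2. Both libraries of sample 1 were above both of sample 2 in 3 of 5 mesangial and 5 of 11 mural markers, against 24.2% of 19229 genes. Sample 2 was above sample 1 in none of them, and the others overlapped, among them Gata3, Pdgfrb, Tagln, Acta2, Myh11 and Des. The 24.2% covers genes at all levels above 0 and is not matched to the levels of these markers. Of the 5 mesangial markers, 3 reached 1 TPM in each library. Ren1 followed the same order, at 29637, 28674, 21904 and 15933 TPM in 1A, 1B, 2A and 2B. The summed dissociation genes did so as well. Both libraries of sample 1 were above both of sample 2 in 11 of 14 dissociation genes and in 4 of 13 leukocyte markers. Distal markers ran the other way, with sums of 71.1 and 298 TPM in sample 1 and 1462 and 1315 TPM in sample 2. Proximal sums were 610 and 735 TPM in sample 1 and 1656 and 12506 TPM in sample 2. In sample 2 they were mostly Kap, at 1236 and 11140 TPM, against 55.5 and 19.8 TPM in sample 1. Each sample was above the other in 1 of the 7 proximal markers, and the rest overlapped. The part of these in the difference of Rgs3 and Rgs4 between samples was not tested.

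Rgs19 and Rgs10, regulators that act chiefly on Gi subunits, were found in library 2A. Rgs19 was at 0 and 0.0156 TPM in sample 1, against 22.3 and 0.0573 TPM in sample 2, with 828 estimated counts in 2A and fewer than 3 in each other library. Rgs10 was at 0 TPM in both libraries of sample 1, against 13.2 and 0.0238 TPM in sample 2, with 344 estimated counts in 2A. The samples met the criterion of no overlap and a 4-fold difference for both genes, at -3.60 and -2.93 on the log2 scale of TPM + 1 for sample 1 minus sample 2. That outcome rested on 1 technical replicate, because 2B differed little from sample 1. Rgs19 lies on chromosome 2 from 181688419 to 181693977, and Rgs10 on chromosome 7 from 128373621 to 128418758, both on the minus strand.

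Rgs1, a regulator best known from lymphocytes, was found in library 2B alone. It was at 0.0219 and 0.0246 TPM in sample 1, against 0.0147 and 25.5 TPM in sample 2. The estimated counts were 2548 in 2B and fewer than 2 in each other library, so 2B held 99.8% of its summed TPM. The same library had the lowest summed level of the 13 leukocyte markers, 0.655 TPM, and none of them reached 1 TPM there. The sums in 1A, 1B and 2A were 28.0, 38.1 and 4.96 TPM. Of the 13, none reached 1 TPM in all libraries, 4 did so in at least 1 and 3 were at 0 throughout. Which cells the Rgs1 transcripts came from was not tested. Rgs1 lies on chromosome 1 from 144242296 to 144249242 on the minus strand.

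Counted together, 4 of the 9 members above 0 had samples that did not overlap and differed at least 4-fold, 2 higher in each sample, against 11.0% of 19229 genes. A gene with little TPM in both samples cannot differ 4-fold in TPM + 1. The 11.0% therefore understates the share among genes at higher levels, and nothing particular to the members is read from the count. Without library 1A the count was 3, with Rgs4 lost, and without 2A it was also 3, with Rgs1 taking the place of Rgs19 and Rgs10. In 4 of the 5 members with a level from 1 to 50 TPM (Rgs4, Rgs1, Rgs19 and Rgs10) a single library held 90% or more of the summed TPM, as it did in 23.2% of 8845 genes in that range. This criterion was chosen after the values had been seen, and nothing about the members is read from it. Technical replicates could lie far apart. For Rgs1 they were 4.71 apart in sample 2 on the log2 scale of TPM + 1, and for Rgs4 they were 2.91 apart in sample 1.

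**Figure D4:**
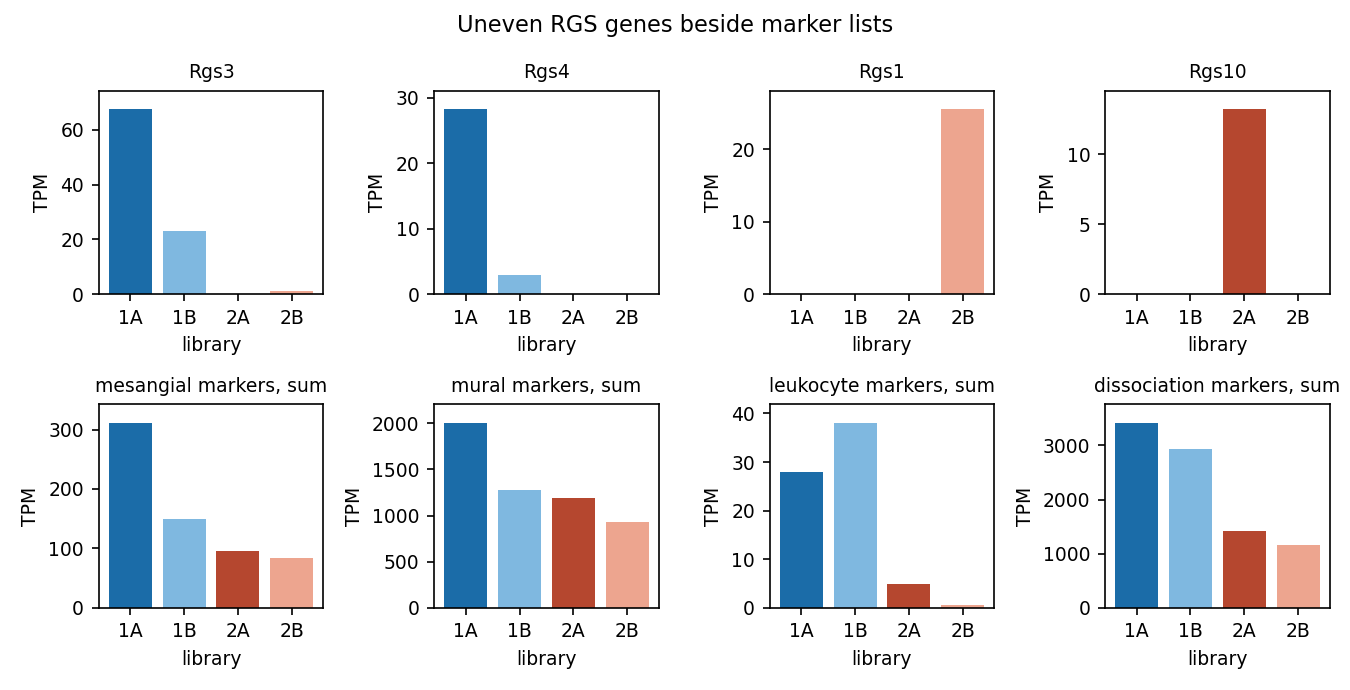
TPM (vertical axes, each from 0) in libraries 1A, 1B, 2A and 2B of Rgs3, Rgs4, Rgs1 and Rgs10 in the upper row, and summed TPM of the mesangial, mural, leukocyte and dissociation marker lists in the lower row. Rgs3 and Rgs4 stand highest in library 1A, as do the mesangial, mural and dissociation sums, while Rgs1 stands in library 2B, where the leukocyte sum is 0.655 TPM.

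The last 3 members were scarcely detected. Rgs12, a large multidomain RGS protein, was at 0.220 and 0 TPM in sample 1 and 0.0263 and 0 TPM in sample 2. Rgs14, which carries Ras-binding domains beside its RGS domain, was at 0.0611 TPM in library 1A and 0 in the others. Rgs16, a small relative of Rgs4 and Rgs5, was at 0 estimated counts in all 4 libraries. A count of 3, the limit that a count of 0 allows, would be worth 0.0191 to 0.0442 TPM of Rgs16, and this limit covers counting error only.

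In order of level, Rgs5 stood above Rgs2 without overlap of any library. Rgs2 and Rgs3 overlapped, since Rgs3 was above Rgs2 in library 1A and below it in the others. Rgs1 followed at 6.40 ± 9.01 TPM, Rgs19 at 5.59 ± 7.90 TPM and Rgs10 at 3.31 ± 4.69 TPM (SD, n = 2). The means of Rgs3, Rgs4, Rgs1, Rgs19 and Rgs10 could not be ordered. Each step between them was smaller than the larger SD of the neighbours. Within libraries, Rgs3 was above Rgs4 in each, at 67.5 against 28.3 TPM in 1A and 23.1 against 2.90 TPM in 1B. It was at 0.263 against 0.126 TPM in 2A and 1.27 against 0 TPM in 2B. Rgs19 was above Rgs10 in each but 1A, where both were at 0. Rgs12, Rgs14 and Rgs16 had the lowest means, at 0.0616, 0.0153 and 0 TPM. They could not be placed below the others in each library either, since Rgs12 exceeded Rgs1, Rgs19 and Rgs10 in 1A.

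The remaining 10 canonical RGS genes added little. Rgs6, an R7 subfamily member, had the highest mean only through library 1A, at 19.2 and 0.418 TPM in sample 1 and 0.497 and 1.86 TPM in sample 2. Rgs20 was at 5.04 and 0.969 TPM in sample 1 and 1.06 and 2.61 TPM in sample 2, above Rgs6 in each library but 1A. Rgs11 and Rgs9 reached 2.02 and 1.65 TPM in their highest libraries. Rgs7, Rgs8, Rgs17 and Rgs21 stayed at or below 0.567 TPM, and Rgs13 and Rgs18 were listed at 0. None of the 10 reached 1 TPM in all 4 libraries. On chromosome 1 lie 11 of the 20 canonical genes, 5 of them members, in tight groups such as Rgs2, Rgs13 and Rgs1, in which the gaps are 134 and 64.9 kb. Of these adjacent genes, Rgs2 was present throughout, Rgs13 was at 0 and Rgs1 was seen in a single library.

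The G proteins on which RGS proteins act were also measured. Of 16 G alpha genes, 6 reached 1 TPM in each library, namely Gnas, Gnai2, Gnai3, Gnaq, Gna11 and Gnat1. Gnas, which encodes the Gs subunit that is not a substrate of most RGS proteins, led at 186.6 ± 1.31 TPM (SD, n = 2), with libraries between 105 and 267 TPM. Gnai2, a Gi subunit, was at 65.9 and 62.0 TPM in sample 1, against 14.7 and 15.0 TPM in sample 2. Gnaq was at 18.9 and 16.3 TPM in sample 1, against 3.19 and 2.61 TPM in sample 2. Both were among 6 of 16 G alpha genes with each library of sample 1 above each of sample 2. It was so for 24.2% of 19229 genes, a share not matched for level. Among G alpha genes the reverse held for Gnai1 and Gnat1. The Gi subunit Gnai3 overlapped, at 27.6 and 5.05 TPM in sample 1 and 6.37 and 4.96 TPM in sample 2. Gnai1, a further Gi subunit, was at 0.0161 and 0.165 TPM in sample 1, against 0.693 and 1.59 TPM in sample 2. Of 16 G beta and gamma genes 6 were present throughout, led by Gng5 at 932.6 ± 73.0 TPM, Gng11 at 749.4 ± 442 TPM and Gnb2 at 79.4 ± 50.1 TPM (SD, n = 2).

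**Figure D5:**
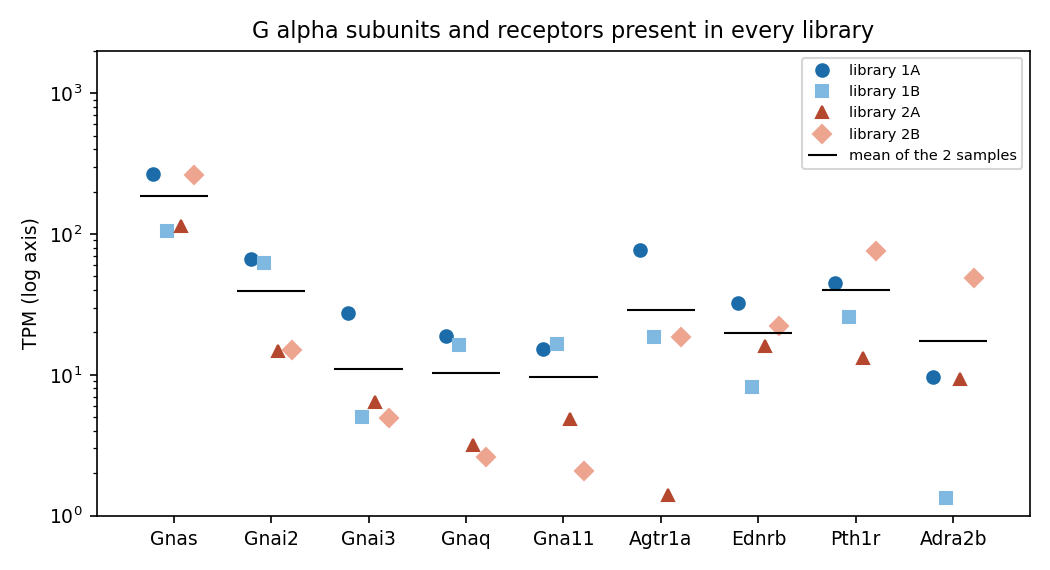
TPM (vertical axis, logarithmic) of 5 G alpha genes and 4 receptor genes present in every library, by library, with a bar at the mean of the 2 biological samples. Gnai2 and Gnaq have both libraries of sample 1 above both of sample 2, while Gnas and Ednrb overlap.

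Among receptors that couple mainly to Gq, 2 of 15 reached 1 TPM in each library. Agtr1a, the angiotensin II type 1a receptor, was at 76.7 and 18.6 TPM in sample 1 and 1.40 and 18.6 TPM in sample 2. Ednrb, an endothelin receptor, was at 32.2 and 8.14 TPM in sample 1 and 16.0 and 22.2 TPM in sample 2. The related Ednra was at 17.7 and 4.35 TPM in sample 1, against 0.00562 and 0.223 TPM in sample 2. Of 12 receptors that couple mainly to Gs, Pth1r, the parathyroid hormone receptor, was alone in being present throughout, at 39.8 ± 6.60 TPM (SD, n = 2). Vipr2 was found in library 1A, at 38.7 TPM, and was at most 0.0338 TPM in the others. Adrb1, the beta-1 adrenoceptor through which sympathetic nerves drive renin release, was between 10.2 and 12.1 TPM in 3 libraries and at 0.0131 TPM in 2B. Of 10 receptors coupled to Gi, Adra2b was present throughout, at 9.70 and 1.34 TPM in sample 1 and 9.41 and 48.6 TPM in sample 2. Ptger3 was at 0.277 and 0.0404 TPM in sample 1, against 23.1 and 38.9 TPM in sample 2. P2ry14 was at 21.2 TPM in 2B and at most 3.28 TPM in the others.

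Effectors and relatives of the family were uneven as well. Of 13 phospholipase C beta and adenylyl cyclase genes, Adcy3 and Adcy7 reached 1 TPM in each library, and the highest means were those of Adcy9, Plcb1 and Adcy3. Adcy9 was at 0.201 and 23.6 TPM in sample 1 and 0.116 and 14.7 TPM in sample 2, so it was below 1 TPM in a library of each sample. Plcb1 was at 21.8 TPM in 2A and between 0.459 and 2.86 TPM in the others, and Adcy3 was at 6.47 ± 5.64 TPM (SD, n = 2). Of 19 measured genes for proteins with an RGS-like domain or for RGS partners, Arhgef12 and the receptor kinase Grk4 were present throughout. Arhgef12 was at 41.2 TPM in 1B and between 4.14 and 4.99 TPM in the others, and Grk4 was between 6.61 and 16.6 TPM. Arhgef1 had the highest mean through library 2B, at 54.3 TPM, and was between 0.200 and 9.59 TPM in the others. The level of Rgs5 was thus close to that of Gnas and above those of the other G alpha genes and of each listed receptor.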

How the data were processed

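RNA of sorted recruited renin cells was measured in 4 libraries. The authors used Trimmomatic for trimming and Salmon to quantify GRCm38 transcripts, and summed them to genes with Tximport under its lengthScaledTPM setting, and the submitters' processing notes name FastQC. For the Ensembl release, no number is given in the sources used here. For each library the authors deposited TPM, effective lengths and estimated counts, which Tximport derives from TPM and are not whole reads. Their mean TPM column was that of 3 libraries, without technical replicate 1 of sample 1, within 1e-06 TPM for each gene.

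TPM were averaged per biological sample with Python 3.11.15, pandas 2.3.3 and numpy 2.4.6, and drawn with matplotlib 3.10.9. Samples were called apart where each library of one was above each library of the other, with sample means of TPM + 1 differing at least 4-fold. No p-value was computed, since there is 1 condition. Because amplified cDNA was read without molecular identifiers, counts of reads are not counts of molecules. Named are all members, other RGS genes at 1 TPM or more in a library and the highest 3 genes of each list of G protein signalling genes. Among the members and those lists, each gene behind a count of at most 5 present throughout is named too. Markers of cell types were counted without naming each. Other genes were named for their values, after these had been seen: Itga8, Gata3, Pdgfrb, Tagln, Acta2, Myh11, Des, Kap, Hspa1b, Gnai1, Gnaq, Gna11, Gnat1, Rgs7, Rgs8, Rgs13, Rgs17, Rgs18 and Rgs21. The members and lists were chosen with earlier results of these data known. The sources used here do not state whether reads kept their strand. GENCODE M21 places antisense genes over parts of Rgs3, Rgs12 and Rgs16 and another transcript over Rgs10, so reads there cannot be assigned with certainty. The rule for samples apart and the likeness measure were tested on simulated libraries, and the other calculations were not. The simulated libraries varied less than these, so that test does not show how the rule behaves at the spread seen here. Alternatives left out libraries or samples, rescaled TPM without 13 mitochondrial genes and Ren1, and changed the minimum, the fold, the pseudocount and the kind of mean.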

Additional observations from a re-analysis of the deposited data

Results flagged for a closer look

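In 8 of the 17 canonical RGS genes above 0, 1 of the 4 libraries stood so far from the rest that its gap to the nearest, as a part of the whole range, exceeded Dixon's critical value. The value of that library was 28.3 TPM for Rgs4, 19.2 TPM for Rgs6, 0.220 TPM for Rgs12, 0.207 TPM for Rgs7 and 0.0611 TPM for Rgs14 in library 1A. It was 22.3 TPM for Rgs19 and 13.2 TPM for Rgs10 in library 2A, and 25.5 TPM for Rgs1 in library 2B. Chance flags about 1 in 20 groups of normally distributed values, but 44.1% of 19229 genes above 0 in these libraries met the same criterion, and 37.5% of 8845 genes with a level from 1 to 50 TPM. The values of Rgs7, Rgs12 and Rgs14 are all under 1 TPM.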

How the results depend on the processing

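The number of members at 1 TPM or more in every library was 2 to 4 when libraries or samples were left out, the 4 being found without biological sample 2, and it was 3 with a minimum of 10 estimated counts in place of TPM. Leaving out libraries or samples put Rgs5 between 155 and 204 TPM, Rgs2 between 63.0 and 70.1 TPM, and the share of Rgs5 in the family TPM between 55.8% and 62.8%. Rescaling without mitochondrial genes and Ren1, which moves each gene up by 0.19 to 0.48 on the log2 scale, gave 215.7 TPM for Rgs5, 81.7 TPM for Rgs2 and a share of 59.1%. The authors' deposited mean gave a share of 60.4%. These shares moved by more than the SD between samples, which was 0.00193 percentage points and does not measure the spread of libraries. In CPM made from the estimated counts, which are not corrected for length and are another unit, Rgs5 was at 1367 and Rgs2 at 348. The levels of uneven members depended on single libraries: without 1A, Rgs3 was at 11.9 in place of 23.0 TPM and Rgs4 at 1.48 in place of 7.83 TPM, without 2B Rgs1 was at 0.0190 in place of 6.40 TPM, and without 2A Rgs19 was at 0.0326 in place of 5.59 TPM and Rgs10 at 0.0119 in place of 3.31 TPM. With 2 samples, leaving one sample out cannot move a mean by more than 1 SD, so such a move says nothing of stability. The number of members with samples apart was 3 or 4 under each alternative. The number with 90% or more of their TPM in 1 library, 5 of all members, was 6 at 80% and 4 at 95%, limits chosen after seeing the data. No paired analysis was possible because there is 1 condition, and the technical replicates are not matched between samples. With 2 samples from few amplified cells, a transcript absent from 1 library cannot be told apart from one that was not captured.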
